A study of Rattus norvegicus with 29 samples.

Results

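The genes described are 28 genes of sterol synthesis, sterol transport and their regulation, followed in blood mononuclear cells of rats on 2 diets in 3 feeding states. They were chosen by name from knowledge of the pathway, as the enzymes from acetyl-CoA to cholesterol, the proteins that sense sterols, and proteins that move or store them. A probe was counted to a gene when the gene name in the scanner files was its symbol, or an older synonym (Sc4mol for Msmo1), and its Cy5 spot exceeded background clearly (the software's flag) on at least 4 arrays. By this rule 27 of the 28 genes had a probe, with 37 probes of the 28242 kept from 41012 on the array, and all 27 entered the tests across 24344 genes. No probe carried the name Npc1, which was not analysed here. The 37 probes were well above background on all 29 arrays, except that of Soat1, on 28, and none was saturated.

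Cholesterol is built from acetyl-CoA through mevalonate, isoprenoid pyrophosphates, squalene and lanosterol. The membrane-bound factor SREBP2, the product of Srebf2, is carried by the escort protein Scap to the Golgi when sterols are low, is cut there, and then switches on most genes of the pathway, while the Insig proteins hold it back when sterols are high. Its best known site of work is the liver, but white blood cells also make and take up sterols, and they need them to grow and divide.

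The animals were male Wistar rats, 6 months old at sampling, on standard chow (control, 14 rats) or on chow plus a fat-rich cafeteria diet (15 rats) for 4 months; the study's design text describes the latter as obese, and body weights were not analysed here. Within each diet, rats were fed freely, fasted for 14 h, or fasted and then refed for 6 h, with 4 control fed rats and 5 rats in each of the other groups. Each rat was bled once, so the feeding states are different animals, and the numbers after a group name below are the rat numbers in the labels. RNA of the mononuclear cells of 1 rat per array was labelled with Cy5 and set against a Cy3-labelled pool of all groups. A value is therefore the log2 ratio of that rat over the pool, normalized within its array. A call means an adjusted p under 0.05 in limma, with Benjamini-Hochberg adjustment over all 24344 genes.

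Between 53.3% and 66.7% of spots were well above background per array, with median Cy5 signals of 103.2 to 154.2 units. All named probes of the T cell list (10 of 11 genes), the B cell list (6 of 10) and the monocyte list (10 of 10) were well above background on all 29 arrays. Markers of cells that a gradient should remove were also present, with 8 of 9 erythroid, 5 of 10 neutrophil and 12 of 18 platelet genes well above background on all arrays, while the platelet marker Selp was so on none. The platelet mean moved with feeding state, from 0.70 ± 0.13 (SD, n = 5) in control fasted to -0.84 ± 0.43 (SD, n = 5) in control refed rats. In control fed rats it was 0.14 ± 0.63 (SD, n = 4), and in cafeteria rats -0.20 ± 0.53 fed, -0.034 ± 0.28 fasted and -0.57 ± 0.78 refed (SD, n = 5 each). In such bulk samples, fewer cells of a type and less RNA per cell cannot be told apart.

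Promoters of 4 called genes are shown because SREBP2 acts with the factors NF-Y and Sp1, whose short motifs lie near the start of many sterol genes. Each is the 200 bases before the gene's start in RefSeq's GRCr8 table, read 5′ to 3′ on the gene's strand, and they were picked because the table's window ends at the gene's own start. Capitals mark the NF-Y box CCAAT or its reverse ATTGG, the GC box GGGCGG or its reverse CCGCCC, and TCACNCCA, a short form of the sterol regulatory element. The capitals of Dhcr7 are 2 GC boxes that overlap by 1 base.
Acat2 (chr1:50100640-50100839, plus strand): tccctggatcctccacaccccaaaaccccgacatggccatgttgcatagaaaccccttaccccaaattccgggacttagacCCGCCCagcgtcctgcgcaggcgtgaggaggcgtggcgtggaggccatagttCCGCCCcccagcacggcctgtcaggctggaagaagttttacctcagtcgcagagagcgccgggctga
Dhcr7 (chr1:208444234-208444433, plus strand): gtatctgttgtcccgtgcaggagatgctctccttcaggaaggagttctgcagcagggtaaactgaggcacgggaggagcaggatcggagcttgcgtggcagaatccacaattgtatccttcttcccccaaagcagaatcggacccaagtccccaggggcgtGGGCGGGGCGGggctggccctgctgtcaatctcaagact
Lss (chr20:12118231-12118430, minus strand): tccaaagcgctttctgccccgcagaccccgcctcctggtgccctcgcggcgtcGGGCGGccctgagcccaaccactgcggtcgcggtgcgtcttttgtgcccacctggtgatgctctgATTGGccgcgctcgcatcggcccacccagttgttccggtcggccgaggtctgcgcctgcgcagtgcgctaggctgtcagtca
Msmo1 (chr16:29746913-29747112, plus strand): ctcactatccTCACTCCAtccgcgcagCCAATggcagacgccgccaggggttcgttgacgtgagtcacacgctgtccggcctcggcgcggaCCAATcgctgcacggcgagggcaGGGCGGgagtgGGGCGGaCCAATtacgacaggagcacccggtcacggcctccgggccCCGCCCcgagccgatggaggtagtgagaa
Msmo1 held 3 NF-Y boxes, 3 GC boxes and the short sterol element at -190 to -183 from its start. Lss held 1 NF-Y box and 1 GC box in the printed stretch. Acat2 and Dhcr7 held GC boxes and no NF-Y box.

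Both strands of the 250 bases before the start were searched in the 24 of 28 genes found in the table; Pmvk, Fdft1, Stard4 and Sqle were not matched. The NF-Y box CCAAT was in 19 of 24 (79.2%), against 34.0% of all 33469 promoters and 35.0% of the 21851 of protein-coding genes. The GC box GGGCGG was in 20 of 24 (83.3%), against 30.5% of all and 38.9% of protein-coding promoters. The E-box CACGTG was in 3 of 24 (Insig1, Sc5d and Scap; 12.5%), against 5.59% of all. The longer sterol element TCACNCCAC was in 0 of 24, against 0.974% of all. Its short form TCACNCCA, searched after the longer form had given no match, was in 2 of 24 (Srebf2 and Msmo1), against 3.24% of all. A match describes letters and was not tested as a binding site.

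RNA of 5 enzymes of the pathway was lower in fasted than in fed rats when both diets were averaged. Msmo1, the C4-sterol methyl oxidase that strips methyl groups from lanosterol's products, fell by 0.56 ± 0.094 (log2 ± SE), a 1.47-fold decrease. Fdft1, squalene synthase, fell by 0.36 ± 0.067. Sqle, squalene epoxidase, fell by 0.40 ± 0.092, and Hmgcs1, the cytosolic HMG-CoA synthase, by 0.34 ± 0.084. Dhcr7, which makes cholesterol from 7-dehydrocholesterol in the last step, fell by 0.32 ± 0.063. These 5 of 27 compare with 2.27% of all genes called as falls, and 0 members rose, against 1.82% called as rises.

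The probe of Msmo1 lies at chr16:26716174-26716233 of the rn4 build, on which the files place their probes. Its log2 ratio was 0.18, 0.12, 0.25 and 0.15 in control fed rats 1, 4, 7 and 13, and -0.49, -0.47, -0.38, -0.16 and -0.57 in control fasted rats 2, 5, 8, 11 and 14. In cafeteria fed rats 1, 4, 7, 10 and 13 it was 0.48, 0.098, 0.30, -0.025 and 0.53, and in cafeteria fasted rats 2, 5, 8, 11 and 14 it was -0.014, -0.50, 0.078, -0.62 and -0.18. Every fasted control rat lay below every fed one, whereas in the cafeteria groups fasted rats 2 and 8 lay within the fed range. The mean fall over both diets had an adjusted p = 0.00112 (limma). Within a diet the change was -0.59 ± 0.14 in control rats (adjusted p = 0.06) and -0.52 ± 0.13 in cafeteria rats (adjusted p = 0.0457). The latter was the single call among 27 members within cafeteria rats, where falls were called for 0.39% of all genes.

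The call of Msmo1 within cafeteria rats was close to the threshold. It was lost when any of 16 of the 29 arrays was left out (adjusted p between 0.0501 and 0.194). These were control fed 1, 4 and 13, control fasted 2, 5 and 8, control refed 6 and 9, cafeteria fed 1, 7 and 13, cafeteria fasted 5, 11 and 14, and cafeteria refed 6 and 9. The change stayed between -0.54 and -0.43 in these fits.

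**Figure D1:**
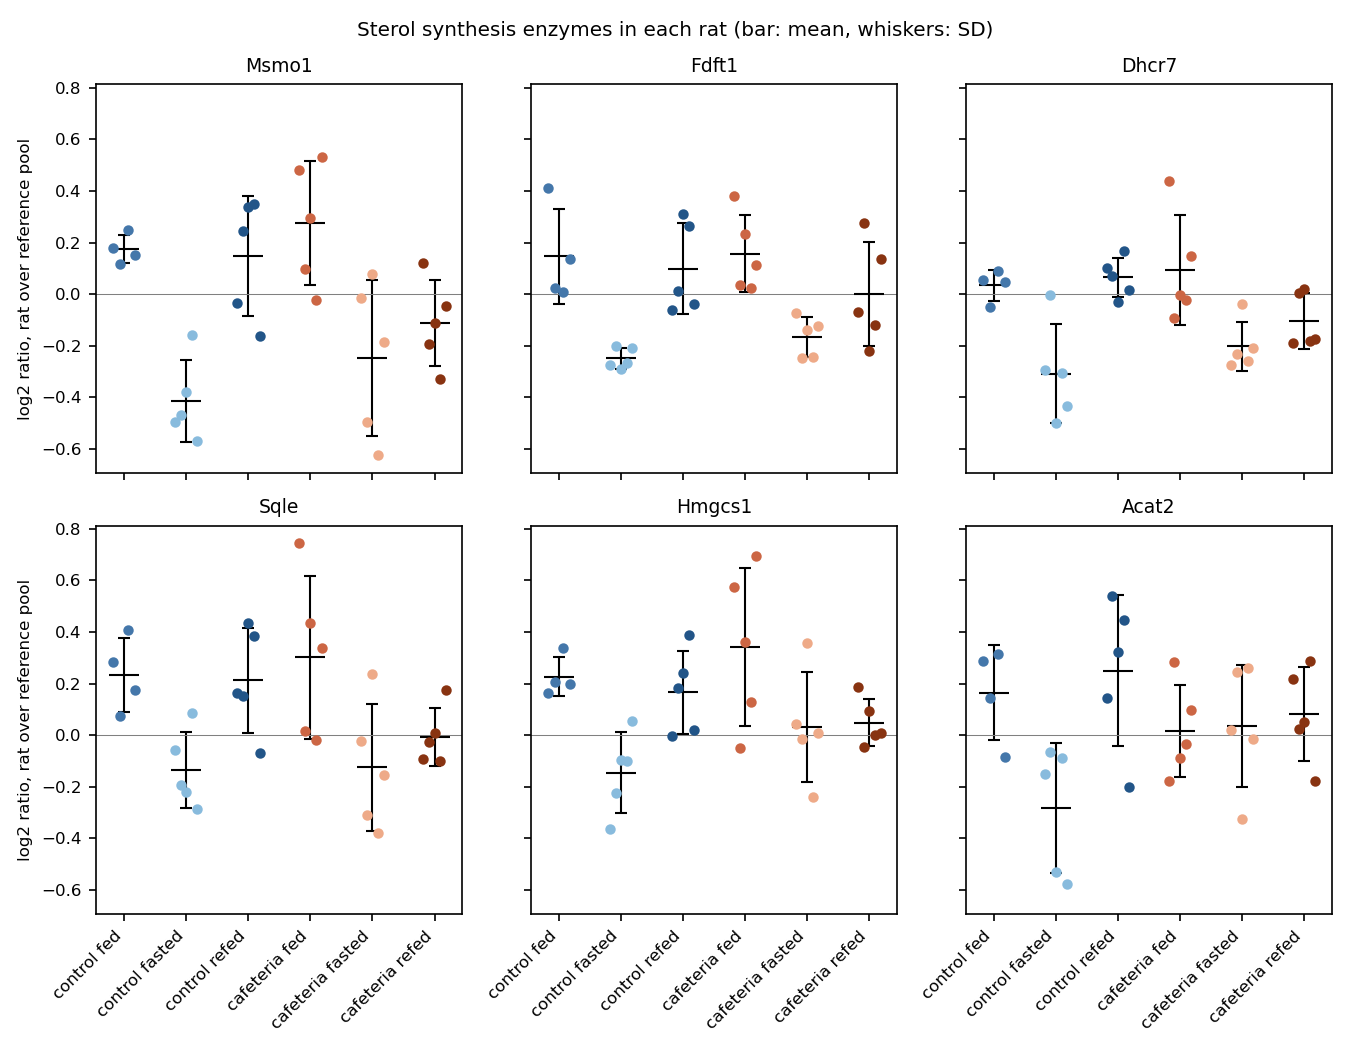
Log2 ratio over the reference pool (vertical axis) of 6 sterol synthesis enzymes in each of the 29 rats (points), by diet and feeding state, with the group mean (bar) and SD (whiskers). Fasted control rats lie below all fed control rats for Msmo1, Fdft1 and Hmgcs1. Msmo1 averaged 0.15 in refed and 0.17 in fed control rats, and -0.11 in refed and 0.28 in fed cafeteria rats.

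Fdft1 joins farnesyl pyrophosphate units to squalene, the first step that is committed to sterols. Its ratio was 0.41, 0.025, 0.0091 and 0.14 in the control fed rats and -0.27, -0.20, -0.29, -0.27 and -0.21 in the control fasted rats, in the same order of rat numbers. In cafeteria rats it was 0.38, 0.036, 0.23, 0.025 and 0.11 fed and -0.075, -0.25, -0.14, -0.25 and -0.12 fasted. Fed and fasted rats did not overlap in either diet. Non-overlap in that direction was found for 2.43% of all genes in control rats, among them 4 members (Msmo1, Fdft1, Hmgcs1 and Ebp), and for 1.07% in cafeteria rats, where Fdft1 was the single member. The mean fall of Fdft1 had an adjusted p = 0.00241, with -0.39 ± 0.098 in control (adjusted p = 0.0718) and -0.32 ± 0.092 in cafeteria rats (adjusted p = 0.0947, limma). Over the 10 alternative settings that kept all arrays, the mean change of Fdft1 lay between -0.67 and -0.35. Its probe lies at chr15:42436506-42436565 (rn4).

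Dhcr7 (probe at chr1:204258565-204258624, rn4) was 0.053, -0.051, 0.09 and 0.046 in control fed and -0.30, -0.0031, -0.50, -0.31 and -0.43 in control fasted rats. In cafeteria rats it was 0.44, -0.092, -0.0037, -0.021 and 0.15 fed and -0.27, -0.23, -0.04, -0.26 and -0.21 fasted. Fasted rat 5 of the controls and fasted rat 8 of the cafeteria group reached into the fed range, and the other fasted rats lay below it. The mean fall had an adjusted p = 0.00356 (limma).

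Sqle, which adds the oxygen that later becomes the sterol's hydroxyl group, was 0.28, 0.073, 0.41 and 0.17 in control fed and -0.06, -0.19, -0.22, 0.085 and -0.29 in control fasted rats. In cafeteria rats it was 0.74, 0.016, 0.43, -0.021 and 0.34 fed and -0.021, -0.31, 0.24, -0.38 and -0.15 fasted. Its groups overlapped in both diets, and the cafeteria groups spread widely, with SDs of 0.32 fed and 0.25 fasted. The mean fall had an adjusted p = 0.0123 (limma), with -0.37 ± 0.13 in control (adjusted p = 0.25) and -0.43 ± 0.13 in cafeteria rats (adjusted p = 0.116). Its probe lies at chr7:96111449-96111508 (rn4).

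Hmgcs1 makes HMG-CoA, the precursor of mevalonate. The probe used (chr2:51754420-51754478, rn4) gave 0.16, 0.21, 0.34 and 0.20 in control fed and -0.37, -0.22, -0.095, -0.1 and 0.056 in control fasted rats, which did not overlap. In cafeteria rats it gave 0.58, -0.051, 0.36, 0.13 and 0.69 fed and 0.042, -0.015, 0.36, -0.24 and 0.0073 fasted, which overlapped. The mean fall had an adjusted p = 0.0173 (limma). A second, dimmer probe of the same transcript (chr2:51751804-51751863) changed by -0.022 ± 0.054, with an adjusted p of 0.895 over all probes, so the fall of Hmgcs1 rests on the brighter probe.

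Of the other 22 members, none passed in the mean of both diets. Acat2, the cytosolic thiolase that starts the pathway, changed by -0.21 ± 0.1 (adjusted p = 0.273), and Fdps, farnesyl pyrophosphate synthase, by -0.18 ± 0.065 (adjusted p = 0.119). Ggps1, which makes geranylgeranyl pyrophosphate for protein anchoring, changed by -0.20 ± 0.08 (adjusted p = 0.183). The kinases and decarboxylase of the mevalonate steps gave -0.098 for Mvk, 0.042 for Pmvk and -0.15 for Mvd, and the isomerase Idi1 gave -0.068. Lss, which folds squalene epoxide into lanosterol, gave -0.16.

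Among the other enzymes after lanosterol, the same comparison gave -0.12 for the demethylase Cyp51, -0.12 for the isomerase Ebp and -0.10 for the desaturase Sc5d. The sterol reductases gave -0.12 for Tm7sf2 and 0.12 ± 0.049 for Lbr, which also anchors chromatin at the nuclear envelope (adjusted p = 0.193). Nsdhl and Hsd17b7, which act beside Msmo1 in removing the C4 methyl groups, gave -0.015 and 0.034. Thus 2 of 9 enzymes from lanosterol to cholesterol passed, and 2 of 3 from squalene to lanosterol. From Acat2 to the decarboxylase Mvd 1 of 5 passed, and 0 of 3 isoprenoid enzymes. With the ratios centred on each array's median in place of loess, these 5 falls had similar sizes (-0.57 to -0.30) and none passed (adjusted p between 0.273 and 0.823).

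The regulators and transport proteins did not pass on fasting. In the mean of both diets Insig1 gave 0.015 ± 0.084, Insig2 -0.23 ± 0.095, Scap 0.016 ± 0.042 and Srebf2 -0.11 ± 0.077 (adjusted p between 0.199 and 0.957). Stard4, a cytosolic sterol carrier, gave 0.045 ± 0.10, Npc2, which unloads cholesterol in lysosomes, 0.12 ± 0.10, and Soat1, which esterifies cholesterol for storage, 0.0078 ± 0.068. Over all 27 members the median change was -0.12, with 19 below 0, against 0.0054 over all genes.

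Within control rats alone limma called 0 of 27 members on fasting, where 0.181% of all genes were called in either direction. At an unadjusted p under 0.05 there were 8 of 27 members, against 11.6% of all genes, and all 8 were lower when fasted: Msmo1, Fdft1, Dhcr7, Acat2, Hmgcs1, Sqle, Srebf2 and Fdps. In cafeteria rats 7 of 27 members reached that level, all lower, against 10.5% of all genes. The count of members called in control rats (adjusted p under 0.05) rose from 0 to 1 without control fasted 5. It rose to 1 without cafeteria fasted 11 and to 2 without cafeteria fed 1. The fasting response did not pass as different between the diets for any member (0 of 27 and 0% of all genes called). The smallest p-values there were those of Acat2 (difference 0.47 ± 0.20), Srebf2 (0.35 ± 0.15) and Insig1 (0.37 ± 0.17), each with an adjusted p of 1 (limma), and these 3 of 27 members had an unadjusted p under 0.05, against 3.2% of all genes. For Insig1, 1 rat stood high in each of 2 groups: control fed 7 at 0.67 (next 0.14) and cafeteria fasted 5 at 0.72 (next 0.21). For Msmo1 the difference was 0.063 ± 0.19.

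**Figure D2:**
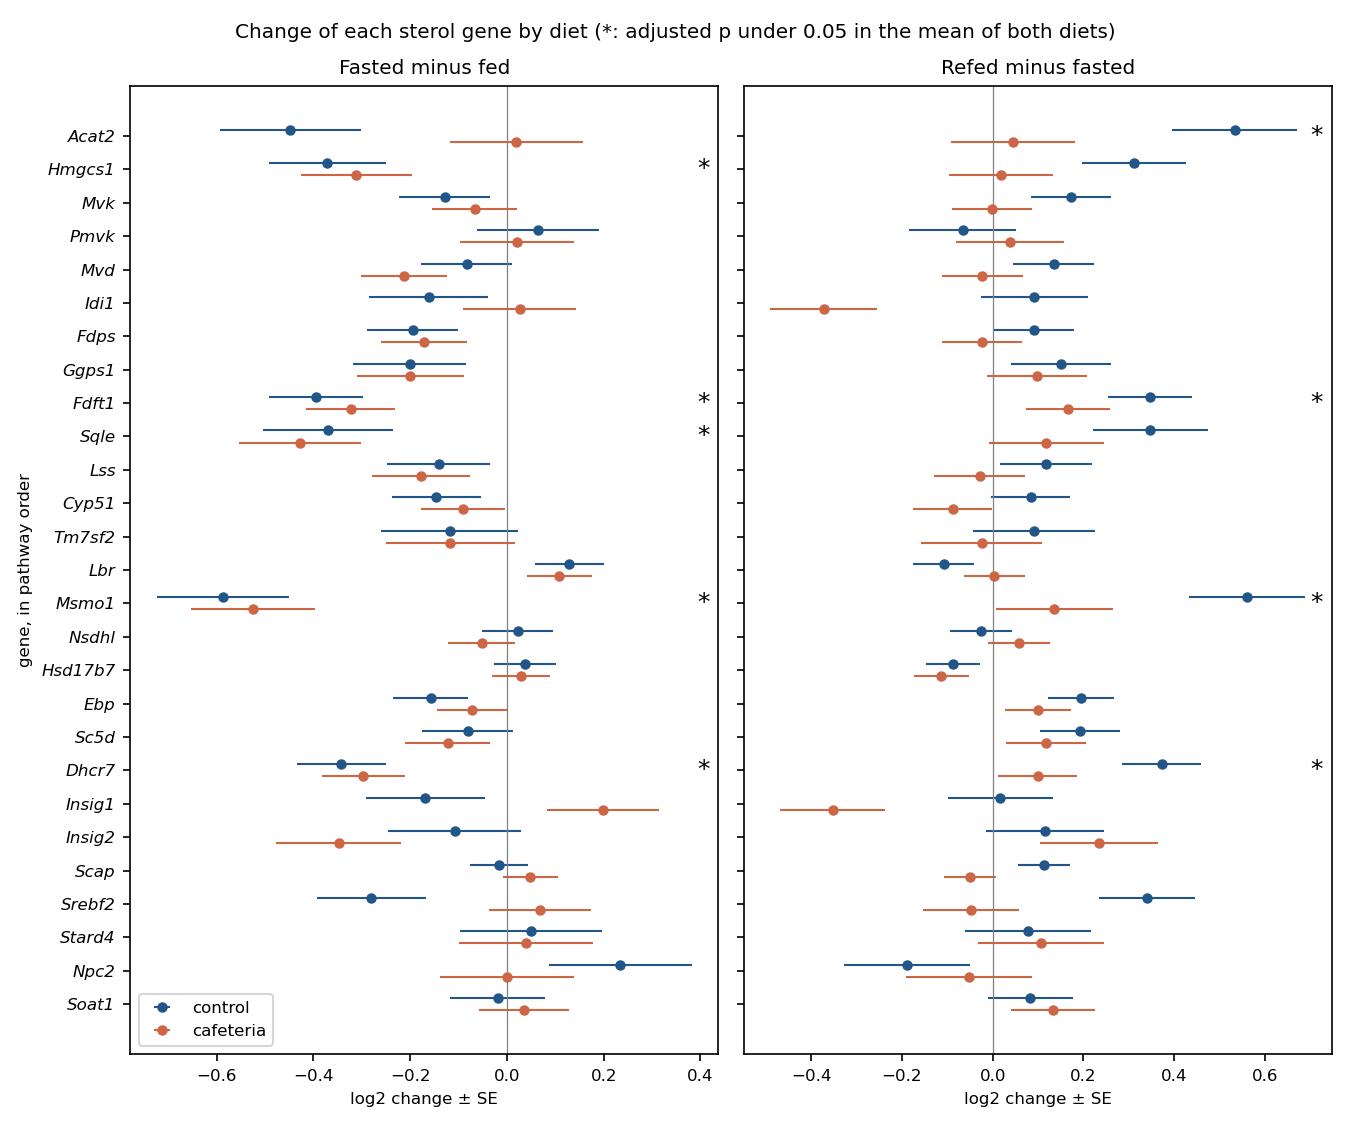
Log2 change ± SE of each of the 27 sterol genes (rows, in pathway order) between fasted and fed rats (left) and between refed and fasted rats (right), in control (blue) and cafeteria rats (orange). On fasting, both diets lie to the left of 0 for the genes with an asterisk, such as Msmo1 (-0.59 in control and -0.52 in cafeteria rats), whereas on refeeding the control values lie farther right than the cafeteria values for the same genes (0.56 and 0.14 for Msmo1).

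On refeeding, 5 members rose in control rats and 0 fell, where 3.31% of all genes were called as rises and 5.97% as falls. Msmo1 rose by 0.56 ± 0.13 (1.48-fold, adjusted p = 0.00555), Acat2 by 0.53 ± 0.14 (1.45-fold, adjusted p = 0.0126) and Dhcr7 by 0.37 ± 0.086 (adjusted p = 0.00608). Fdft1 rose by 0.35 ± 0.092 (adjusted p = 0.0154) and Srebf2 by 0.34 ± 0.11 (adjusted p = 0.0406, all limma). This comparison uses the same fasted rats as the fasting comparison, so low values in those rats enter both.

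In control refed rats 3, 6, 9, 12 and 15 the ratio of Msmo1 was -0.035, 0.24, 0.34, 0.35 and -0.16, and that of Fdft1 was -0.061, 0.014, 0.31, 0.27 and -0.037. Refed rats 9 and 12 were the highest for both, and rat 15 was the lowest for Msmo1. Fdft1 did not overlap with its fasted values, nor did Ebp, and these 2 members compare with 4.1% of all genes that were higher without overlap. Without refed rat 9 or 12 the count of members called dropped from 5 to 3. Fdft1 was then among those lost, with an adjusted p of 0.0585 without rat 9 and 0.0536 without rat 12.

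Dhcr7 was 0.1, 0.069, -0.03, 0.17 and 0.016 in the control refed rats, against fasted values down to -0.50. Rat 5 of the fasted group, at -0.0031, reached the refed range. Acat2 was 0.29, 0.14, 0.32 and -0.087 in control fed, -0.15, -0.065, -0.53, -0.09 and -0.58 in control fasted and 0.14, 0.54, 0.32, 0.45 and -0.20 in control refed rats. Refed rat 15 lay among the fasted rats and the other 4 above them all. The probe of Acat2 lies at chr1:41939864-41939923 (rn4), and a second, much dimmer probe also named Acat2 gave 0.25 ± 0.10 (adjusted p = 0.128 over all probes).

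Sqle (0.35 ± 0.13, adjusted p = 0.0871), Hmgcs1 (0.31 ± 0.11, adjusted p = 0.0906) and Ebp (0.19 ± 0.073, adjusted p = 0.0962) had the next smallest p-values in control rats. Insig1 gave 0.017 ± 0.12 and Soat1 0.083 ± 0.093. In all 22 of 27 members were above 0, with a median of 0.12 against 0.010 over all genes. By role, 2 of 9 enzymes after lanosterol rose, 1 of 3 from squalene to lanosterol and 1 of 5 from Acat2 to the decarboxylase Mvd. Of the rest, 0 of 3 isoprenoid enzymes, 1 of 4 regulators and 0 of 3 transport and storage proteins rose. With median centring in place of loess none of the 5 passed (changes of 0.35 to 0.45, adjusted p between 0.387 and 0.737).

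In cafeteria rats limma called 0 of 27 members on refeeding, where 1.42% of all genes were called. The genes that rose in control rats gave 0.14 ± 0.13 for Msmo1, 0.099 ± 0.086 for Dhcr7, 0.045 ± 0.14 for Acat2, 0.17 ± 0.092 for Fdft1 and -0.047 ± 0.11 for Srebf2. Cafeteria refed rats 3, 6, 9, 12 and 15 had 0.12, -0.19, -0.11, -0.33 and -0.047 for Msmo1, all inside the range of the cafeteria fasted rats or barely above it. For Fdft1 they had -0.071, 0.27, -0.22, -0.12 and 0.13, where rats 6 and 15 lay far above the fasted rats and rats 9 and 12 among them. For Sqle they had -0.093, -0.027, 0.0089, -0.099 and 0.18, and for Hmgcs1 0.19, -0.045, 0.093, 0.0009 and 0.0066.

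On refeeding in cafeteria rats 2 of 27 members had an unadjusted p under 0.05, against 13.2% of all genes, so the members did not stand above the background. Both were lower after refeeding. Idi1, which turns isopentenyl pyrophosphate into its isomer, gave -0.37 ± 0.12 (adjusted p = 0.117), and Insig1, the sterol sensor that retains SREBP2, gave -0.35 ± 0.12 (adjusted p = 0.139, limma). Idi1 was 0.098, 0.066, 0.43, -0.042 and 0.12 in the fasted cafeteria rats. After refeeding it was -0.17, -0.35, -0.17, -0.17 and -0.34. These groups did not overlap, as in 1.31% of all genes that were lower on refeeding. The second probe of Idi1 gave -0.30 ± 0.089 (adjusted p = 0.0971 over all probes).

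Insig1 had 4 probes, all within 1 transcript on chromosome 4. The brightest gave -0.0008, 0.72, 0.19, 0.21 and 0.10 when cafeteria rats were fasted, with rat 5 far above the others, and -0.075, 0.13, -0.19, -0.18 and -0.24 when refed. The other 3 probes changed by -0.34, -0.36 and -0.24, with adjusted p-values of 0.162, 0.0543 and 0.244 over all probes. In control rats the 4 probes lay between -0.018 and 0.027. Over the 29 arrays the 3 other probes followed the brightest with r between 0.71 and 0.86, as a description of probes that share their RNA. Insig2, the other sensor, gave 0.23 ± 0.13 in cafeteria rats with its brighter probe and 0.041 with its dimmer one.

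**Figure D3:**
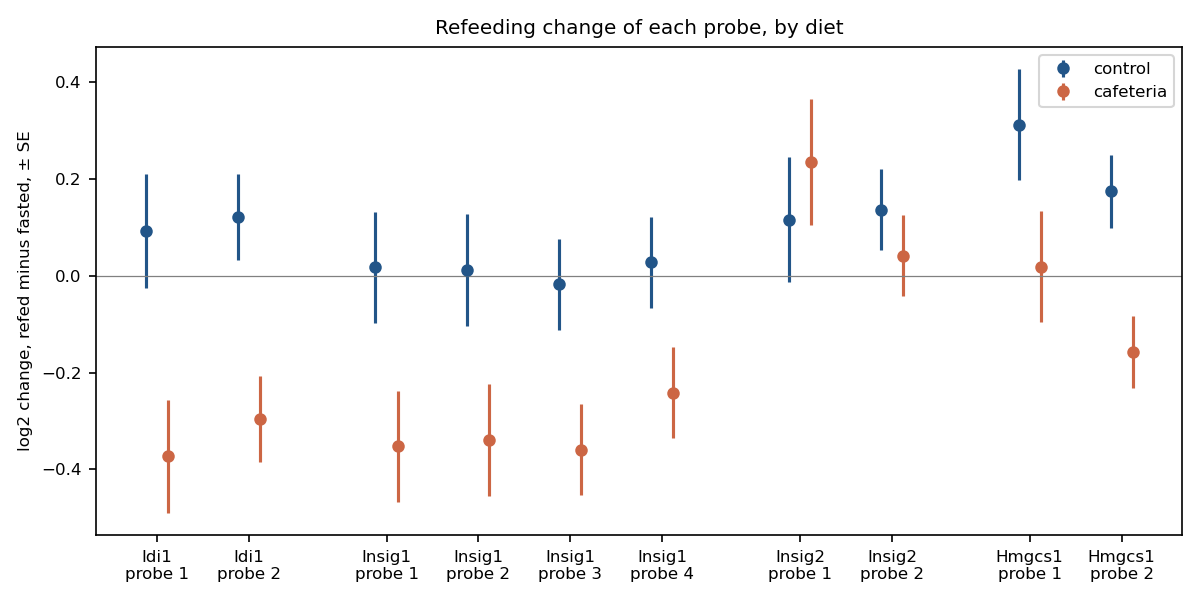
Log2 change ± SE between refed and fasted rats (vertical axis) for each probe of Idi1, Insig1, Insig2 and Hmgcs1 (horizontal axis, brightest first), in control (blue) and cafeteria rats (orange). Both probes of Idi1 and all 4 of Insig1 lie between -0.37 and -0.24 in cafeteria rats and near or above 0 in control rats, and none passed an adjusted p of 0.05.

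The difference between the diets in the refeeding response was tested directly. It passed for 0 of 27 members and 0% of all genes. The largest differences were -0.49 ± 0.19 for Acat2 (adjusted p = 0.641), -0.46 ± 0.17 for Idi1 (adjusted p = 0.641), -0.42 ± 0.18 for Msmo1 (adjusted p = 0.643) and -0.39 ± 0.15 for Srebf2 (adjusted p = 0.641). Insig1 gave -0.37 ± 0.16 and Dhcr7 -0.27 ± 0.12, and these 6 of 27 members had an unadjusted p under 0.05, against 7.47% of all genes, all with the lower response in cafeteria rats. The responses on the 2 diets were thus not shown to differ.

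Averaged over both diets, 4 members rose on refeeding and 0 fell, where rises were called for 5.95% of all genes and falls for 7.5%. These were Fdft1 (0.26 ± 0.065, adjusted p = 0.00801), Dhcr7 (0.24 ± 0.061, adjusted p = 0.00922), Msmo1 (0.35 ± 0.091, adjusted p = 0.00969) and Acat2 (0.29 ± 0.097, adjusted p = 0.0465, limma). The call of Acat2 was lost without any of 17 of the 29 arrays (adjusted p between 0.0501 and 0.0964). These were control fed 1 and 4, control fasted 8 and 14, control refed 6, 9 and 12, cafeteria fed 7, 10 and 13, cafeteria fasted 2, 8 and 14, and cafeteria refed 3, 6, 9 and 12. Over the 27 members the median change was 0.085 against 0.0024 over all genes.

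The platelet markers moved opposite to these enzymes, with all 12 measured markers lower in refed than in fasted rats, by a median of -1.58 in control rats. With the platelet mean as a covariate, limma called 0 of 27 members on refeeding in control rats and 0 in the mean of both diets. Msmo1 then gave 0.45 (adjusted p = 0.263), Acat2 0.44 (0.316), Dhcr7 0.31 (0.249), Fdft1 0.29 (0.322) and Srebf2 0.41 (0.22) in control rats. Across all genes the same covariate left 4 calls of 2260 in that comparison. In control rats no fasted rat had a platelet mean as low as any refed rat, so platelet content and refeeding are closely tied there. On fasting, all 5 calls of the mean of both diets stayed with the covariate, with changes between -0.53 and -0.31.

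Against fed rats of the same diet, refed rats had 0 of 27 members called on either diet (0% of all genes called in both). In control rats 0 members had an unadjusted p under 0.05, against 5.82% of all genes, and the median was -0.0029. The smallest p-values were those of Scap (0.097 ± 0.061), Insig1 (-0.15 ± 0.12) and Sc5d (0.11 ± 0.094). In cafeteria rats 8 of 27 members had an unadjusted p under 0.05, against 4.27% of all genes, all lower after refeeding than when fed, and the median was -0.10 with 19 of 27 below 0. They were Msmo1 (-0.39 ± 0.13), Idi1 (-0.35 ± 0.12), Mvd (-0.24 ± 0.089), Hmgcs1 (-0.29 ± 0.11), Sqle (-0.31 ± 0.13), Dhcr7 (-0.20 ± 0.086), Fdps (-0.19 ± 0.089) and Cyp51 (-0.18 ± 0.087), each with an adjusted p of 1.

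Between the diets, Lss and Srebf2 were lower in cafeteria rats when the 3 feeding states were averaged. Lss, lanosterol synthase, fell by 0.33 ± 0.059 (1.26-fold, adjusted p = 0.00106), and Srebf2, which encodes SREBP2, by 0.24 ± 0.062 (adjusted p = 0.0253, limma). These 2 of 27 compare with 2.44% of all genes called as falls, and 0 members rose, against 0.793% called as rises. Lss did not pass on fasting or refeeding, and the 5 enzymes that fell on fasting did not pass between diets, with 0.0032 ± 0.076 for Msmo1 and -0.0015 ± 0.051 for Dhcr7. With median centring in place of loess, Lss gave -0.36 (adjusted p = 0.139) and Srebf2 -0.23 (adjusted p = 0.547). The sizes depended on the processing. Over the 11 alternative settings that kept all arrays, Lss lay between -0.65 and -0.31 and Srebf2 between -0.42 and -0.23.

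The probe of Lss lies at chr20:12507929-12507988 (rn4). Its ratio was 0.47, 0.019, 0.14 and 0.12 in control fed and 0.26, -0.016, 0.008, -0.32 and -0.29 in cafeteria fed rats, which overlapped. It was 0.22, 0.12, -0.055, 0.066 and -0.11 in control fasted and -0.026, -0.36, -0.25, -0.41 and -0.20 in cafeteria fasted rats, which overlapped through cafeteria rat 2. In refed rats it was 0.28, 0.11, 0.22, 0.16 and 0.062 on the control and -0.15, -0.12, -0.47, -0.29 and -0.37 on the cafeteria diet. These did not overlap, with every control rat above 0 and every cafeteria rat below it. By state the change was -0.26 ± 0.11 fed (adjusted p = 1), -0.30 ± 0.10 fasted (adjusted p = 0.157) and -0.44 ± 0.10 refed (adjusted p = 0.0592, limma).

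Srebf2 has 2 probes in its transcript that went separate ways. The brighter, used here (chr7:120548399-120548458, rn4), gave 0.44, 0.0089, 0.11 and -0.10 in control fed and -0.46, -0.0049, -0.31, -0.24 and -0.15 in cafeteria fed rats. In fasted rats it gave -0.21, -0.11, -0.18, 0.078 and -0.41 on the control and -0.10, -0.14, -0.072, -0.34 and -0.16 on the cafeteria diet. In refed rats it gave 0.39, 0.041, 0.079, 0.32 and 0.041 and -0.40, -0.054, -0.41, -0.13 and -0.067. All refed control rats lay above 0 and all refed cafeteria rats below it, while the fasted groups averaged -0.17 and -0.16. By state the diet difference was -0.35 ± 0.11 fed (adjusted p = 0.775), 0.0019 ± 0.11 fasted (adjusted p = 0.996) and -0.38 ± 0.11 refed (adjusted p = 0.137).

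The other probe of Srebf2 (chr7:120569291-120570130) did not follow it, with r = -0.23 over 29 arrays. Its diet difference was 0.14 ± 0.094 (adjusted p = 0.525 over all probes), and its refeeding change in control rats was 0.064 ± 0.16 (adjusted p = 0.868). In 5 of the 6 groups its SD was between 0.047 and 0.13, but among cafeteria refed rats rat 3 stood at 1.23 and the SD was 0.61. The calls of Srebf2 therefore rest on 1 of its 2 probes. The refeeding call of Srebf2 in control rats was also lost without control fasted 2, 5, 8 or 14 or control refed 3, 9 or 12 (adjusted p between 0.0508 and 0.129). Its diet call was lost without control fed 1 (adjusted p = 0.0611, change -0.21).

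**Figure D4:**
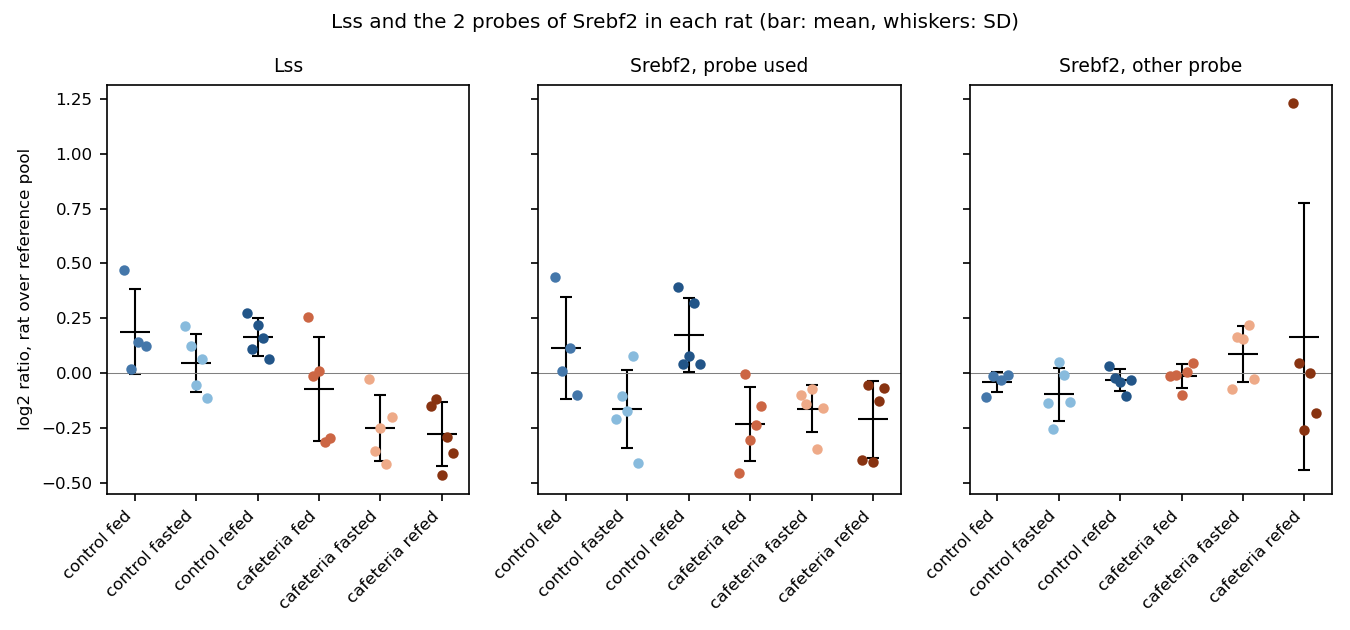
Log2 ratio over the reference pool (vertical axis) of Lss and of the 2 probes of Srebf2 in each rat (points), by diet and feeding state, with mean (bar) and SD (whiskers). Refed cafeteria rats lie below refed control rats for Lss (means -0.28 and 0.16) and for the Srebf2 probe used (-0.21 and 0.17). The other Srebf2 probe lies between -0.26 and 0.22 in all rats except 1 cafeteria refed rat at 1.23.

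Within a single feeding state, limma called 0 of 27 members between diets. All genes were called at 0.00411% when fed, 0.854% when fasted and 0.222% when refed. At an unadjusted p under 0.05 there were 2 members when fed (Srebf2 and Lss, both lower in cafeteria rats), 4 when fasted, and 2 when refed (Lss and Srebf2, both lower). Over all genes that level was reached by 4.53% when fed, 14.8% when fasted and 8% when refed, so the members' counts were near the background when fasted and refed, and 2 of 27 is little above it when fed. The 4 when fasted were Lss (-0.30 ± 0.10) and Lbr (-0.16 ± 0.067), lower in cafeteria rats, and Acat2 (0.32 ± 0.14) and Idi1 (0.26 ± 0.12), higher. In fed rats the third smallest p was that of Lbr (-0.14 ± 0.071), and in refed rats that of Msmo1 (-0.26 ± 0.13, adjusted p = 0.635). When refed, 22 of 27 members were below 0, with a median of -0.10 against 0.0062 over all genes. Both members without overlap there, Lss and Srebf2, compare with 1.48% of all genes lower without overlap. The count of 0 when refed became 1 without any of control fed 1, cafeteria fed 1, cafeteria fed 10, cafeteria fasted 2 or cafeteria refed 3. Next to Lss and Srebf2, the smallest p in the mean of 3 states was that of Lbr (-0.11 ± 0.039, adjusted p = 0.122).

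For the members that passed in no comparison, the group means (± SD, n = 4 in control fed and 5 in each other group) spanned the following ranges. Among the mevalonate enzymes, Mvk ran from -0.18 ± 0.18 in control fasted to -0.0057 ± 0.19 in control refed rats, with every group mean below 0. Pmvk, the second kinase, was lowest at -0.24 ± 0.21 in cafeteria fed and highest at -0.079 ± 0.077 in control fasted rats. Mvd, the decarboxylase, went from -0.095 ± 0.18 in cafeteria refed to 0.14 ± 0.16 in cafeteria fed rats. Fdps ran between -0.23 ± 0.12 in cafeteria refed and 0.0013 ± 0.14 in control fed rats, and Ggps1 between -0.0006 ± 0.12 in control fasted and 0.23 ± 0.35 in cafeteria fed rats. The high spread of Ggps1 in cafeteria fed rats comes with rat 10, at 0.85.

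Cyp51, the first enzyme after lanosterol, ran from 0.028 ± 0.13 in cafeteria refed to 0.26 ± 0.11 in control fed rats, and Ebp from -0.069 ± 0.048 in control fasted to 0.13 ± 0.093 in control refed rats. Tm7sf2 was lowest at 0.10 ± 0.11 in control fasted and highest at 0.33 ± 0.24 in cafeteria fed rats, while Lbr, which can do the same reduction, was lowest at -0.11 ± 0.17 in cafeteria fed and highest at 0.16 ± 0.078 in control fasted rats. Nsdhl had the narrowest span of these, from 0.017 ± 0.052 in cafeteria fasted to 0.075 ± 0.15 in cafeteria refed rats. Its probe was dim, with a median Cy5 of 235.2 units, and that of Hsd17b7 was dimmer (132.6), against array medians of 103.2 to 154.2. The called genes Fdft1, Srebf2 and Lss were at 272.7, 278 and 293.7. Hsd17b7 went from -0.057 ± 0.11 in cafeteria refed to 0.13 ± 0.088 in control fasted rats, and Sc5d from 0.041 ± 0.15 in cafeteria fasted to 0.26 ± 0.18 in control refed rats.

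Of the regulators, Insig2 ran from -0.14 ± 0.35 in cafeteria fasted to 0.21 ± 0.22 in cafeteria fed rats, so both ends were cafeteria groups. Scap stayed between -0.009 ± 0.10 in control fasted and 0.10 ± 0.066 in control refed rats. Of the transport and storage proteins, Stard4 ran from -0.063 ± 0.13 in control fed to 0.12 ± 0.21 in cafeteria refed rats. Npc2 went from -0.13 ± 0.30 in control fed to 0.11 ± 0.23 in control fasted rats. Soat1, whose probe was dim (median Cy5 of 130.5 units), went from -0.07 ± 0.24 in cafeteria fed to 0.097 ± 0.14 in cafeteria refed rats.

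Averaged over the 27 members, control rats had 0.084 ± 0.041 fed (SD, n = 4), -0.063 ± 0.064 fasted and 0.087 ± 0.073 refed (SD, n = 5 each). Cafeteria rats had 0.069 ± 0.062 fed, -0.039 ± 0.082 fasted and -0.028 ± 0.032 refed (SD, n = 5 each). Cafeteria refed rats overlapped with control refed and with cafeteria fed rats. The highest cafeteria refed rat stood at 0.0010, the lowest control refed rat at -0.022 and the lowest cafeteria fed rat at -0.0037. The fasted mean lay below the fed mean on both diets, and the cafeteria refed mean lay near the cafeteria fasted mean.

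Of 39 other genes of the pathway's cofactors, isoprenoid branches, sterol transport and SREBP processing, 37 were measured. In control rats 4 rose on refeeding and 0 fell, against 3.31% and 5.97% of all genes: Lipa, the lysosomal acid lipase that frees cholesterol from esters (0.68 ± 0.16, adjusted p = 0.00753), Scarb1, the HDL receptor (0.42 ± 0.13, adjusted p = 0.0431), Stard3, a late endosomal sterol carrier (0.35 ± 0.073, adjusted p = 0.00301), and Rabggta, a geranylgeranyl transferase subunit (0.29 ± 0.074, adjusted p = 0.013). In cafeteria rats Lipa alone rose (0.64 ± 0.16, adjusted p = 0.0464), against 0.764% of all genes called as rises. In the mean of both diets, Lipa (-0.50 ± 0.12), Pggt1b (-0.23 ± 0.055) and Rabggta (-0.18 ± 0.054) fell on fasting, against 2.27% of all genes. On refeeding Lipa (0.66 ± 0.12), Stard3, Fnta, Pggt1b and Rabggta rose, against 5.95% of all genes, and Nus1 (-0.31 ± 0.080) fell, against 7.5%. Between diets, in the mean of 3 states, Pgrmc1, a heme-binding partner of Cyp51, fell by 0.19 ± 0.045 (adjusted p = 0.0122, limma), against 2.44% of all genes called as falls. In the other comparisons none of the 37 passed.

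All arrays were read in 2 runs of the image extraction software, of 14 and 15 arrays, in which the groups are unequally spread. Run 1 holds 4 of 5 control fasted and cafeteria fed arrays and 1 of 5 cafeteria fasted and cafeteria refed arrays. In runs 1 and 2 the fasting change in the mean of both diets was -0.68 and -0.52 for Msmo1, -0.48 and -0.20 for Fdft1, -0.35 and -0.28 for Dhcr7, -0.51 and -0.31 for Sqle, and -0.42 and -0.061 for Hmgcs1. Within cafeteria rats alone Msmo1 gave -0.82 and -0.28. The refeeding change in control rats was 0.48 and 0.74 for Msmo1, 0.36 and 0.48 for Dhcr7, 0.55 and 0.77 for Acat2, 0.24 and 0.39 for Fdft1, and 0.32 and 0.56 for Srebf2. The diet difference was -0.39 and -0.22 for Lss and -0.37 and -0.044 for Srebf2. The direction was the same in both runs for each, but several group means within a run are 1 rat. These are cafeteria fasted 5 and cafeteria refed 3 in run 1, and control fasted 14 and cafeteria fed 4 in run 2. The size for Hmgcs1 and for the diet difference of Srebf2 was much smaller in run 2. For Hmgcs1, control fasted 14 (0.056) was the highest and cafeteria fed 4 (-0.051) the lowest of its group. With the run as a block, the calls of Msmo1 on fasting in cafeteria rats (adjusted p = 0.144) and of Srebf2 on refeeding in control rats (adjusted p = 0.0532) were lost. With the slide as a block the same calls were lost (0.313 and 0.086), as was that of Acat2 on refeeding in the mean of both diets (0.0797).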

How the data were processed

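The authors' scanner files, from Agilent Feature Extraction 9.5.1.1 per the file headers, hold spot and local background intensity in both colours. The authors' deposited value table holds normalized Cy5 signals whose values follow a log2 scale; their normalization between arrays is not given in the sources used here. From the scanner intensities, background was corrected with normexp (offset 50) and log2 ratios (Cy5 over Cy3) were loess-normalized array by array, with R 4.3.3 and limma 3.58.1. Outlier spots were left out (they touched 3756 probe and array values, of which 526 were then missing). The brightest probe stood for each gene. All 29 arrays entered 1 limma fit of 6 group means, with 14 contrasts. The fit was tested on simulated data. The members, the lists and the rule for named genes (every member that passed, the 3 smallest p-values where fewer than 3 passed, and Hmgcs1, Sqle, Msmo1, Insig1, Srebf2 and Soat1 in comparisons of feeding states) were chosen with earlier results of these data known. Promoter sequences are RefSeq's, GRCr8 build; probe positions are rn4, per the file headers, and no rn4 annotation of exons was used here. The result of 1 gene of the wider pathway list is not reported here. The alternatives are named in the closing section. The number of arrays limits the precision. Same-numbered rats of the 2 diets did not pair (14 pairs, correlations between -0.15 and 0.21).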

Additional observations from a re-analysis of the deposited data

Results flagged for a closer look

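Of 162 sets of 1 member in 1 group, 13 had a rat that stood apart from the rest of its group by Dixon's criterion; chance alone marks about 1 in 20 sets. Among control refed rats, rat 9 was highest for Mvk (0.32, next -0.031) and Mvd (0.29), and rat 12 for Hsd17b7 (0.20) and Stard4 (0.28). Among control fed rats, rat 7 was highest for Insig1 (0.67, next 0.14) and lowest for Npc2 (-0.58), and rat 1 was highest for Sc5d (0.32). Among cafeteria fed rats, rat 10 was highest for Ggps1 (0.85, next 0.13) and lowest for Ebp (-0.29), rat 7 was highest for Sc5d (0.50) and lowest for Insig1 (-0.15), and rat 1 was lowest for Lbr (-0.40). Among cafeteria fasted rats, rat 8 was highest for Dhcr7 (-0.040, next -0.21). Dhcr7 is the single one of these genes that passed in a comparison.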

How the results depend on the processing

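Each call of a named member was recomputed under the other settings (172 results: 136 kept the call, 36 lost it, 0 reversed) and without each array in turn (493 results: 450 kept, 43 lost, 0 reversed). Median centring in place of loess left 0 members called on fasting in cafeteria rats and on refeeding in control rats. It also left 0 in the means of both diets and of 3 states, and the cause was not tested. In the mean of both diets the fasting changes had similar sizes (Msmo1 -0.57, adjusted p = 0.424, limma). On refeeding in control rats the changes of Msmo1 and Acat2 were smaller than with loess. The authors' table gave 3 falls on fasting in cafeteria rats, 12 rises on refeeding in control rats, 9 in the mean of both diets and 2 falls between diets when refed, with the median of all genes shifted by 0.15 on refeeding in control rats. Processed signals and Cy5 alone each gave 2 and 2 for fasting in cafeteria rats and diets when refed. No filter, the slide block and the run block each gave 0 for fasting in cafeteria rats. The filter on all arrays and testing all kept probes each gave 1 for diets when refed. The platelet covariate gave 0 for refeeding in control rats, 0 for its mean of both diets and 1 for diets when fasted. With rat number as a replicate block, which can be fitted for comparisons of diets only, 1 member passed when refed and 1 in the mean of 3 states, where Srebf2 (-0.24, adjusted p = 0.136) was lost; the numbers did not pair the rats, with 2 of 14 correlations over 0.1. Leaving out 1 array gave 0 to 2 members on fasting in control rats, 0 to 2 in cafeteria rats and 5 to 6 in their mean; 3 to 6 on refeeding in control rats and 3 to 6 in the mean; 0 to 1 between diets when refed and 1 to 2 in the mean of 3 states.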
